A study of Mus musculus with 6 samples.

Results

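The 6 genes described here encode CC chemokine ligands, Ccl1, Ccl3, Ccl4, Ccl9, Ccl20 and Ccl22, and were taken by symbol from a deposited table of 4162 genes. They are the rows the table holds of 21 mouse CC ligand genes looked for, and the other 15 were not analysed here. RNA sequencing compared activated splenic CD4+ T cells of 3 UTX TCD mice with those of 3 WT mice. UTX TCD mice lack UTX in T cells, and UTX, the product of Kdm6a, removes methyl groups from lysine 27 of histone H3. The strain prefix given for both genotypes is B6. The sources used here do not name the driver of the T cell deletion, the deleted exons or the ages of the mice. In both genotypes naive CD4+ cells were isolated magnetically and stimulated for 48 h with anti-CD3 on the plate and anti-CD28 in solution, so no unstimulated cells enter the comparison. It addresses which transcripts differ when activated T cells lack UTX.

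Chemokines are small secreted proteins that bind G protein-coupled receptors on leukocytes and steer their migration. The CC group is named for adjacent cysteines near the amino terminus. Activated T cells are a known source of several of them: Ccl3 and Ccl4 are attractants of T cells and macrophages and Ccl3 binds Ccr1, Ccl1 binds Ccr8, Ccl20 binds Ccr6, and Ccl22 binds Ccr4. Ccl9 is a rodent ligand of Ccr1, best known from myeloid cells.

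Ccl1, Ccl9, Ccl3 and Ccl4 lie in the chemokine cluster of chromosome 11, Ccl20 lies on chromosome 1 and Ccl22 on chromosome 8 (GRCm38). In GENCODE M21 Ccl3 runs from 83647844 to 83649355 on the minus strand and Ccl4 from 83662584 to 83664683 on the plus strand, 13228 bases apart. RefSeq draws a longer Ccl4 gene that shares 755 bases with Ccl3 on the other strand. The sources do not state the annotation used or whether reads were counted by strand. Whether reads from that stretch could be told apart by gene is therefore not known. Ccl9 runs from 83572919 to 83578636 on the minus strand, 69207 bases from Ccl3. RefSeq places Ccl1 at 82176666 to 82179812 on the minus strand, and GENCODE M21 draws a longer gene, from 82176657 to 82305690. Which span was counted is not known. Ccl20 runs from 83116766 to 83119167 on chromosome 1 and Ccl22 from 94745590 to 94751699 on chromosome 8, both on the plus strand.

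RefSeq upstream sequences (GRCm38.p6) were held for 5 of the 6 genes, all but Ccl4. Those of Ccl1, Ccl20 and Ccl9 are shown because each held a match to the NF-kB consensus, and that of Ccl3 because it is the most abundant of these transcripts and held none. The 250 bases before the annotated start site are given 5′ to 3′ on the gene's strand, with matches to the NF-kB consensus, the AP-1 site TGANTCA, the CRE TGACGTCA and the TATA box TATAAA in capitals, searched on both strands.
Ccl1, chr11:82179813-82180062, minus strand: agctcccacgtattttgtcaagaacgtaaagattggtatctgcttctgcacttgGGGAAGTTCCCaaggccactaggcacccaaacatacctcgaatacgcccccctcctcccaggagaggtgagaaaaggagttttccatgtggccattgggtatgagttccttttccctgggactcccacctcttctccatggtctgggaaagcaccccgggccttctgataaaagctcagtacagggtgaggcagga
Ccl20, chr1:83116516-83116765, plus strand: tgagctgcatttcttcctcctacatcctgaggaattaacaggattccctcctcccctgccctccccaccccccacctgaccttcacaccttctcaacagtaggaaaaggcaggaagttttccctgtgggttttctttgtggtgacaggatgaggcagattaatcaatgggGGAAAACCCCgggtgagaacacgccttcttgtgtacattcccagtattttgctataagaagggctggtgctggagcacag
Ccl9, chr11:83578637-83578886, minus strand: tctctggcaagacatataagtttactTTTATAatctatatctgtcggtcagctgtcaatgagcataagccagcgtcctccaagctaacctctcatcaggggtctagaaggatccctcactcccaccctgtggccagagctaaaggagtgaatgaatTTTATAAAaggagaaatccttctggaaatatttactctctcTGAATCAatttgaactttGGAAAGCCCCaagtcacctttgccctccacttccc
Ccl3, chr11:83649379-83649628, minus strand: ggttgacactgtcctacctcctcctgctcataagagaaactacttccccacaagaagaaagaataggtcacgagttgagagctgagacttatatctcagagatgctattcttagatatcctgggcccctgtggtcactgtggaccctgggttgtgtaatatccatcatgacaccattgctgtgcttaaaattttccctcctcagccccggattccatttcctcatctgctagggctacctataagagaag

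NF-kB is a transcription factor activated downstream of the T cell receptor. The NF-kB match lay 196 to 186 bases before the start site in Ccl1, 80 to 71 in Ccl20 and 35 to 26 in Ccl9. Its consensus was present in 3 of the 5 windows, against 7.25% of 32851 mouse windows of the same 250 bases and 9.41% of those of genes in the table. The AP-1 and TATA matches were found in Ccl9, and no window of these genes held the CRE. The NFAT core GGAAA, not capitalised, was present in 4 of the 5 windows, all but that of Ccl22, against 55.6% of all windows. In Ccl20 and Ccl9 the NFAT core overlapped the NF-kB match. These matches describe letters in the window and are not evidence of binding.

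Column totals were 8363326 to 9497542 counts in UTX TCD and 8823939 to 10288306 counts in WT libraries. Levels are given in CPM, counts scaled to a common total of the listed genes after TMM scaling, and run higher than they would over a full library. The table holds few genes with a small genotype difference: 20 of 4118 genes tested had a log2 fold change within 0.1 of 0. A gene in it had in effect already been chosen for differing, and the counts below describe the table. At an adjusted p under 0.05 in edgeR's quasi-likelihood test, 27.0% of the genes tested were lower and 41.1% higher in UTX TCD cells. Of all calls 60.4% were higher, a share of 70.6% with upper-quartile scaling and of 44.9% with a scaling that centres the sparse point of the fold changes on 0. The first principal component of log2 CPM put UTX TCD libraries at 18.9, 42.9 and 24.5 and WT libraries at -29.8, -31.6 and -24.8, so that UTX TCD replicate 2 stood apart. Kdm6a itself had 188, 207 and 179 CPM in UTX TCD and 286, 281 and 281 CPM in WT libraries, a log2 fold change of -0.56 ± 0.09 (SE, edgeR adjusted p = 0.0029). Its counts cover the whole gene, including exons outside any deleted part.

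All 6 chemokine genes were lower in every UTX TCD library than in every WT library. Of the genes tested, 44.0% were likewise lower without overlap. Ccl3, Ccl4, Ccl1, Ccl20 and Ccl22 passed the test and Ccl9 did not. The median log2 fold change of the 6 genes was -2.61, against -0.15 over all genes tested. Falls of 4-fold or more were called for Ccl3, Ccl20, Ccl1 and Ccl4, and for 2.38% of all genes tested. Summed over the 6 genes, UTX TCD cells had 99.3 ± 32.1 CPM and WT cells 608 ± 68.2 CPM (SD, n = 3 each). In bulk RNA, fewer cells that make a transcript and less transcript per cell cannot be told apart.

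**Figure D1:**
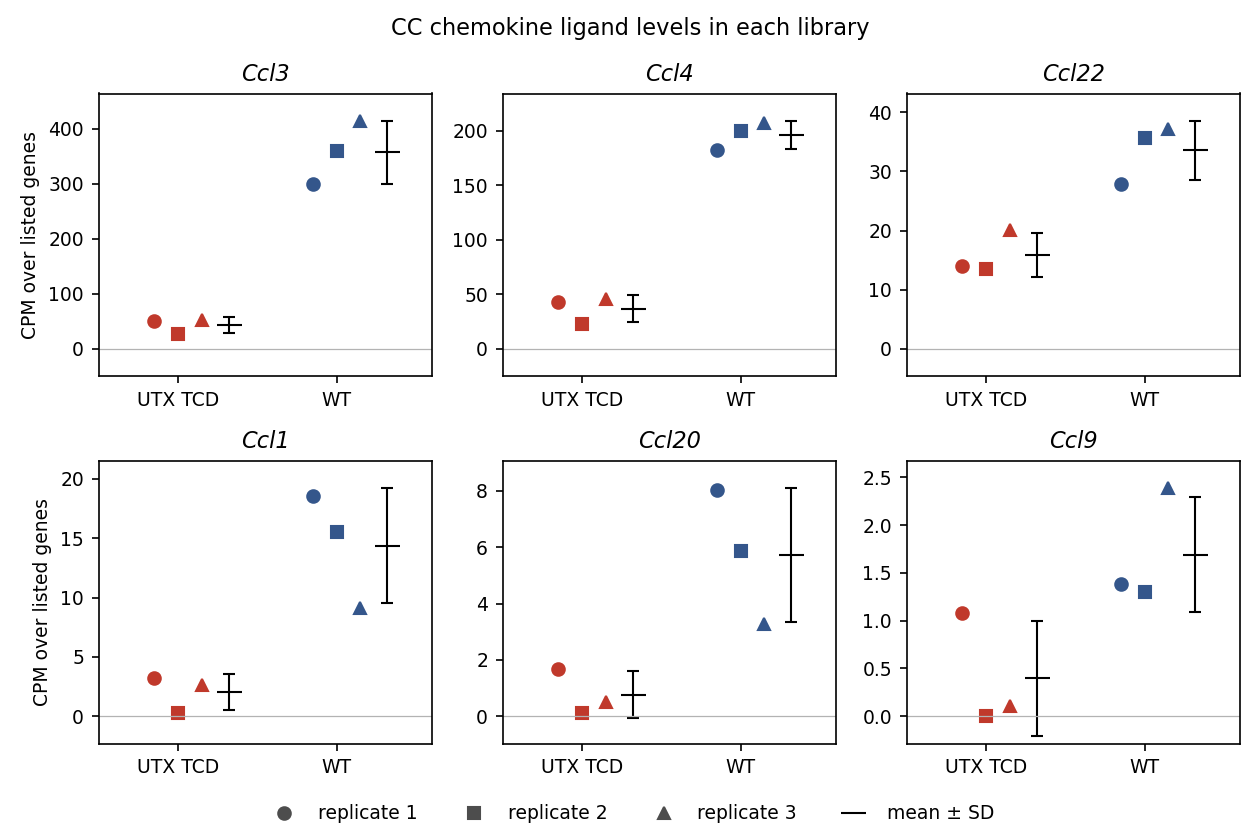
CPM over the listed genes of each chemokine gene (vertical axis, linear and different in each panel) in UTX TCD libraries on the left and WT libraries on the right, by replicate, with the mean ± SD of 3 libraries. Every UTX TCD point lies below every WT point, with the groups nearest to each other for Ccl9, at 1.08 CPM in UTX TCD replicate 1 and 1.30 CPM in WT replicate 2.

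Ccl3 was the most abundant of the 6 in WT cells. It had 51.0, 26.1 and 52.9 CPM in UTX TCD replicates 1 to 3, and 299, 359 and 413 CPM in WT replicates 1 to 3. The means were 43.3 ± 14.9 CPM in UTX TCD and 357 ± 57.3 CPM in WT libraries (SD, n = 3 each), so that UTX TCD cells had 12.1% of the WT level. Ccl3 is an inflammatory chemokine that draws in macrophages, monocytes and T cells. Its log2 fold change was -3.04 ± 0.27 (edgeR adjusted p = 5.6e-04), which ranked 29 from the largest fall among 4118 genes.

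Ccl4, its neighbour on the chromosome and an attractant of T cells and macrophages, moved with it. It had 43.0, 22.5 and 45.2 CPM in UTX TCD and 182, 199 and 207 CPM in WT libraries. UTX TCD replicate 2 was the lowest library for Ccl3 and for Ccl4. The log2 fold change of Ccl4 was -2.41 ± 0.24 (edgeR adjusted p = 7.7e-04), a mean 5.31-fold lower in UTX TCD cells. Per kilobase of principal transcript, the levels in UTX TCD cells were 56.6 ± 19.5 for Ccl3 and 55.9 ± 19.0 for Ccl4, and those in WT cells 466 ± 74.7 for Ccl3 and 297 ± 19.5 for Ccl4 (CPM per kb, SD, n = 3 each). The level of Ccl3 was thus above that of Ccl4 in each WT library and close to it in UTX TCD libraries.

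The ratio of Ccl3 to Ccl4 counts is read within a library and does not depend on scaling. It was 1.19, 1.16 and 1.17 in UTX TCD and 1.64, 1.80 and 2.00 in WT libraries. As a share of the summed counts of both genes, Ccl3 made up 53.7% to 54.2% in UTX TCD and 62.2% to 66.6% in WT libraries. The highest Wilson bound (95%) of a UTX TCD library was 58.2% and the lowest of a WT library 60.8%, so the ranges did not meet at this depth. An exact two-sided permutation test over the 6 libraries gave p = 0.1, the smallest that 3 against 3 allows (0.15 adjusted over the 6 ratios computed). The log2 ratio differed by -0.63 between genotypes, UTX TCD minus WT.

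**Figure D2:**
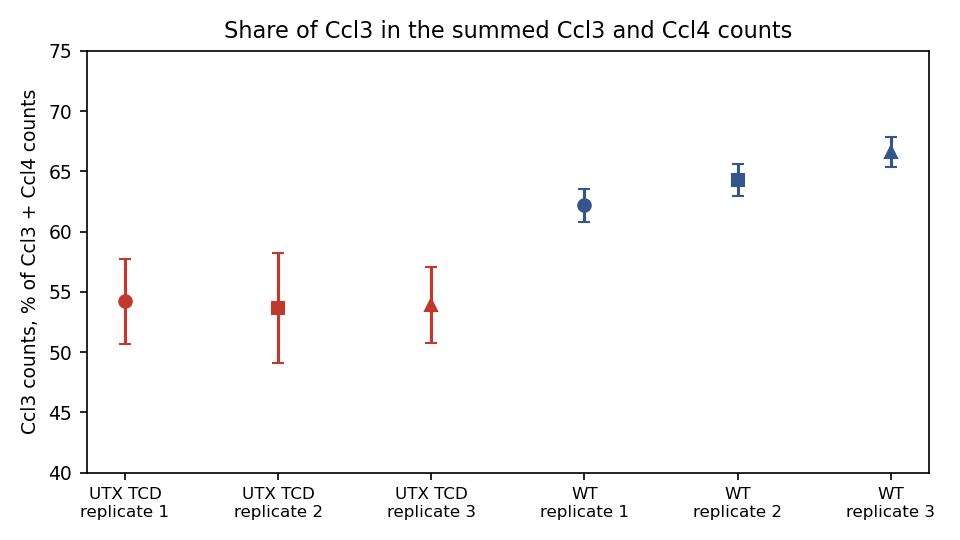
Ccl3 counts as a percentage of Ccl3 plus Ccl4 counts (vertical axis, from 40 to 75) in each of the 6 libraries, with 95% Wilson intervals that cover counting error only. UTX TCD libraries lie between 53.7% and 54.2% and WT libraries between 62.2% and 66.6%.

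Ccl22, the Ccr4 ligand known for attracting regulatory and type 2 helper T cells, fell least. It had 14.0, 13.5 and 20.1 CPM in UTX TCD and 27.8, 35.7 and 37.1 CPM in WT libraries, with no overlap. Its log2 fold change was -1.08 ± 0.22 (edgeR adjusted p = 0.0069), and UTX TCD cells had 47.3% of the WT level. Because Ccl3 and Ccl4 fell further, Ccl22 made up 12.3%, 21.6% and 16.6% of the 6 genes' counts in UTX TCD and 5.19%, 5.79% and 5.52% in WT libraries. The ratio of Ccl3 to Ccl22 counts was 3.65, 1.93 and 2.63 in UTX TCD and 10.7, 10.1 and 11.1 in WT libraries, and that of Ccl4 to Ccl22 averaged 2.33 ± 0.71 in UTX TCD and 5.90 ± 0.55 in WT libraries (SD, n = 3 each; exact permutation p = 0.1 for each ratio, 0.15 adjusted).

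Ccl1, the ligand of Ccr8, was present at lower levels. It had 27, 3 and 25 counts in UTX TCD and 187, 143 and 80 counts in WT libraries, or 3.25, 0.317 and 2.60 CPM in UTX TCD and 18.5, 15.5 and 9.08 CPM in WT libraries. The 3 counts of UTX TCD replicate 2 have an exact Poisson interval of 0.619 to 8.77, below the 16.2 at the low end for replicate 3. The log2 fold change was -2.81 ± 0.63 (edgeR adjusted p = 0.0096). The call was lost when all 21951 annotated protein-coding genes were counted as tests (adjusted p = 0.051).

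Ccl20, the ligand of Ccr6 and a chemokine linked to Th17 cells and the gut mucosa, had 14, 1 and 5 counts in UTX TCD and 81, 54 and 29 counts in WT libraries. Its levels were 1.69, 0.106 and 0.521 CPM in UTX TCD and 8.02, 5.86 and 3.29 CPM in WT libraries. UTX TCD replicate 1 was the highest of its group, and its Poisson interval of 7.65 to 23.5 counts overlaps that of WT replicate 3, 19.4 to 41.6. The log2 fold change was -2.92 ± 0.71 (edgeR adjusted p = 0.013). Without UTX TCD replicate 1 it was -4.13, and with all annotated genes counted as tests the adjusted p was 0.069. The ratio of Ccl1 to Ccl20 counts averaged 3.31 ± 1.56 in UTX TCD and 2.57 ± 0.23 in WT libraries and overlapped between them (SD, n = 3 each; exact permutation p = 0.7).

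Ccl9 was near the limit of detection. It had 9, 0 and 1 counts in UTX TCD and 14, 12 and 21 counts in WT libraries. The 0 in UTX TCD replicate 2 has an exact Poisson interval of 0 to 3.69 counts. A floor of 3 counts in that library is 0.317 CPM. The log2 fold change of -2.13 ± 0.91 did not pass (edgeR adjusted p = 0.064). It passed with limma-voom (-2.98, adjusted p = 0.026) and without UTX TCD replicate 1 (-4.69, edgeR adjusted p = 0.0093), the library that held 9 of the group's counts.

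**Figure D3:**
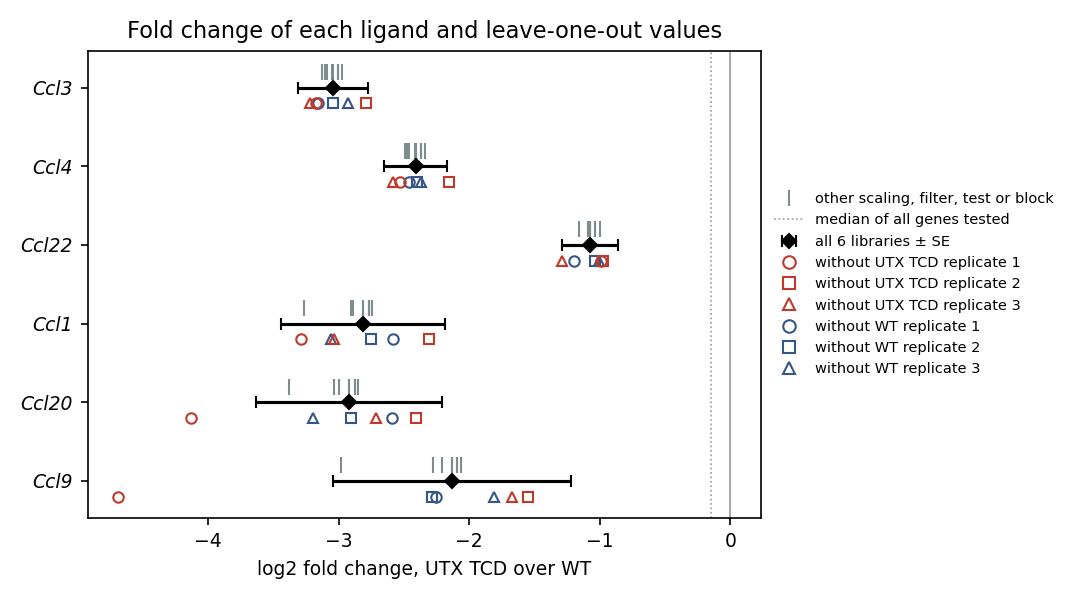
Log2 fold change of each chemokine gene, UTX TCD over WT (horizontal axis), with all 6 libraries ± SE as diamonds, with each library left out as open symbols, and under other processing as ticks. Every value lies below 0 and below the median of all genes tested, -0.15, and the spread is widest for Ccl9, from -4.69 to -1.55 with a library left out.

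Ordered per kilobase in WT cells, the levels were 466 ± 74.7 for Ccl3, 297 ± 19.5 for Ccl4, 28.0 ± 9.38 for Ccl1, 15.1 ± 2.26 for Ccl22, 7.21 ± 2.98 for Ccl20 and 0.562 ± 0.200 CPM per kb for Ccl9 (SD, n = 3). Neighbours in this order did not overlap between WT libraries. In UTX TCD cells Ccl22 stood above Ccl1, at 7.16 ± 1.66 and 4.0 ± 3.0 CPM per kb (SD, n = 3), and their ranges overlapped. Ccl3 and Ccl4 also overlapped there. The order of Ccl1 and Ccl22 rests on the transcript length used, 514 bases for Ccl1 and 2216 bases for Ccl22. By CPM, Ccl22 was above Ccl1 in both genotypes. The means were 33.5 against 14.4 CPM in WT and 15.9 against 2.06 CPM in UTX TCD libraries.

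The libraries of a genotype did not vary alike for all 6 genes. By CPM, UTX TCD replicate 2 was the lowest UTX TCD library for each of them, although its column total of 9220586 counts lay within the range of its group. This library also lay furthest from WT on the first principal component over all genes tested, at 42.9 against 18.9 and 24.5. How many other lower genes were lowest in it was not counted. For Ccl22 the margin was small, at 13.5 CPM against 14.0 CPM in replicate 1, and replicate 2 held more counts (128 against 116). For Ccl9 it held 0 counts against 1 in replicate 3, with overlapping Poisson intervals. Without UTX TCD replicate 2 the log2 fold changes ran from -2.79 for Ccl3 to -0.98 for Ccl22, and the same 5 genes passed. Among WT libraries, replicate 1 was the highest for Ccl1 and Ccl20, at 0.42 and 0.56 above the WT mean of log2 CPM, and the lowest for Ccl3, Ccl4 and Ccl22, at 0.24, 0.11 and 0.26 below it. WT replicate 3 was the lowest for Ccl1 and Ccl20 and the highest for the other 4 genes. Ccr6, the receptor of Ccl20, had the same order as Ccl20 in WT libraries, with 51.5, 44.9 and 22.6 CPM in replicates 1 to 3. The order was not particular to this pair. Il2 had it too, with 692, 566 and 412 CPM, and Tnfsf11, with 814, 777 and 609 CPM, while Tnf did not. The share of all genes with this order was not counted. In UTX TCD libraries Ccr6 had 15.4, 23.8 and 11.1 CPM and was highest in replicate 2, where Ccl20 was lowest.

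**Figure D4:**
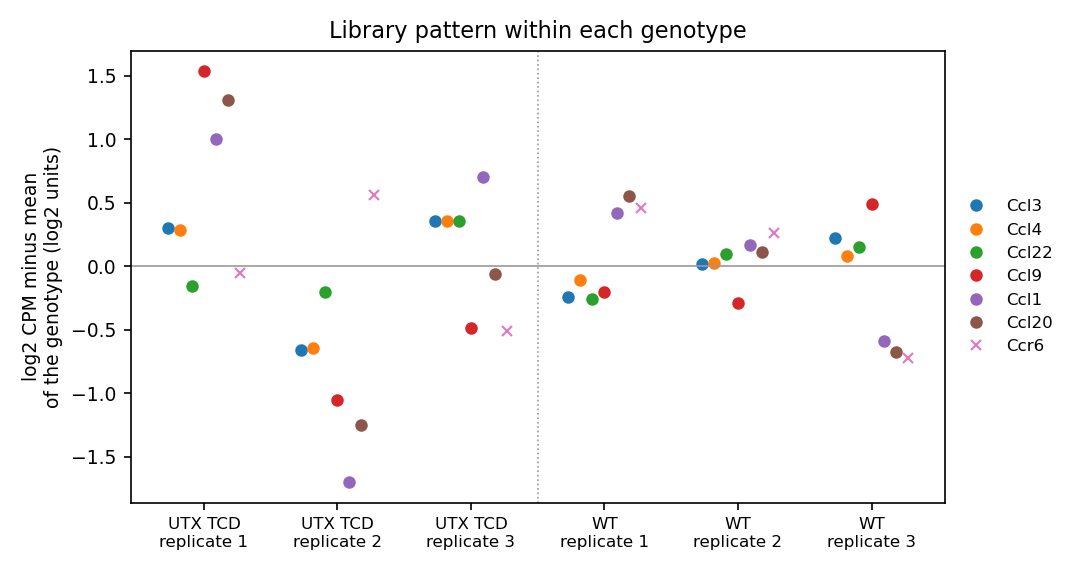
Log2 CPM of each chemokine gene and of Ccr6 minus its mean over the libraries of the same genotype (vertical axis, log2 units), with UTX TCD libraries left of the dotted line and WT libraries right of it. Points of UTX TCD replicate 2 lie below 0 for all 6 chemokine genes and at 0.56 for Ccr6, and in WT replicate 3 Ccl1, Ccl20 and Ccr6 lie at -0.59, -0.68 and -0.72.

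Genes with the most similar profile were sought for each chemokine gene among 3879 genes with an average log2 CPM of at least 2. Similarity was the Euclidean distance between centred log2 CPM profiles over the 6 libraries. The 6 chemokine genes were left out of the search, so their nearness to each other was not compared. For Ccl3 the nearest was Zdbf2 at 0.61, followed by Lypd6b at 0.62 and the collagen chain gene Col5a3 at 0.71. For Ccl4 they were Tal2, a helix-loop-helix factor, at 0.43, Lypd6b at 0.46 and Igsf9 at 0.56. Ccl1 and Ccl20 shared Twist1, a transcription factor, at 1.00 and 1.13, and Shtn1 at 1.01 and 1.11. For Ccl1 the next was Nts, which encodes neurotensin, at 1.20, and for Ccl20 it was Rai14 at 1.24. For Ccl22 they were Casp4, an inflammatory caspase, at 0.26, Antxr2 at 0.32 and Ubash3b, a phosphatase that restrains T cell receptor signalling, at 0.33. Ccl9 had Ddn at 1.31, Ifng at 1.47 and Pcsk1 at 1.57. All these profiles share the libraries and the genotype step, so nearness describes these 6 libraries.

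Most chemokine receptor genes tested were lower. Of 6 receptor genes tested, of 22 looked for, 4 were lower (66.7%), 1 was higher (16.7%) and 1 did not pass. Over all genes tested 27.0% were lower and 41.1% higher. The median log2 fold change of the receptor genes was -1.05, against -0.15 over all genes tested. Ccr6 fell by 1.24 ± 0.37 on the log2 scale (edgeR adjusted p = 0.023) with overlapping libraries, a call lost without WT replicate 1 (0.078), WT replicate 2 (0.073) or UTX TCD replicate 3 (0.054) and with all annotated genes counted as tests (0.12). Cxcr3, a receptor of Th1 cells, averaged 1.41 ± 1.21 CPM in UTX TCD and 10.8 ± 3.46 CPM in WT libraries (log2 fold change -2.91 ± 0.60, edgeR adjusted p = 0.0076). Cxcr5 and Cxcr6 were lower at -1.10 ± 0.27 and -1.01 ± 0.32, and Cxcr6 did not pass without WT replicate 3 (0.068) or with the replicate block (0.053). Cxcr4, the receptor that holds lymphocytes in bone marrow, was higher, at 32.9 ± 11.3 CPM in UTX TCD and 7.25 ± 0.28 CPM in WT libraries (2.18 ± 0.27, edgeR adjusted p = 0.0017). Ccr7, which guides naive cells to lymph nodes, did not pass at 0.80 ± 0.32 (0.053). The 4 lower receptors became 1 without WT replicate 1 or 2 or with all annotated genes counted as tests and 2 without UTX TCD replicate 3, and the higher ones 2 without UTX TCD replicate 1 or 3. Ccr1, Ccr4, Ccr8 and the scavenger receptor Ackr2 were not analysed here.

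Among ligands outside the CC group, Xcl1, a chemokine for cross-presenting dendritic cells, was tested. It had 14.1, 3.07 and 24.5 CPM in UTX TCD and 15.5, 33.6 and 40.6 CPM in WT libraries. The groups overlapped and the log2 fold change of -1.10 ± 0.65 did not pass (edgeR adjusted p = 0.14). GENCODE places a transcript on the other strand over Xcl1, whose reads could not be told apart without strand. Cxcl13, the B cell chemokine, fell under the count filter with 0 counts in each UTX TCD library and 11, 22 and 26 counts in WT libraries. Against a floor of 3 counts over the UTX TCD group it was at least 19.1-fold lower. It passed the filter, and was called lower, when the filter was dropped (edgeR adjusted p = 0.0061), without WT replicate 1 and with any 1 UTX TCD library left out (0.0071 to 0.013).

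Signalling genes downstream of chemokine receptors were called in both directions, in shares near those of the table. Of 16 tested, 8 were higher, 5 lower and 3 did not pass, or 50% higher and 31.2% lower, against 41.1% and 27.0% of all genes tested. Their median log2 fold change was 0.29. Rgs16, Rgs2 and Rgs1, which shorten G protein signals, fell by 1.57 ± 0.26, 1.00 ± 0.16 and 0.43 ± 0.09 on the log2 scale. The Rgs genes did not all fall. Rgs10 and Rgs14 rose by 0.46 ± 0.09 and 0.66 ± 0.17 (edgeR adjusted p = 0.0069 and 0.015). Gng2, a G protein gamma subunit, fell by 1.03 ± 0.13, and Dock2, the Rac activator needed for lymphocyte migration, by 0.54 ± 0.08. Arrb1, an arrestin that turns receptors off, rose by 0.85 ± 0.14 (edgeR adjusted p = 0.0036). The 8 higher genes became 4 without WT replicate 1, 3 without WT replicate 2 and 4 with all annotated genes counted as tests.

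Cytokine genes of activated CD4+ cells were lower alongside the chemokines. Of 11 tested, 7 were lower (63.6%), 0 higher and 4 did not pass, against 27.0% lower and 41.1% higher over all genes tested. Their median log2 fold change was -1.28. The 0 higher genes were also 0 at an unadjusted p under 0.05, with DESeq2 and with limma-voom. Ltb was called higher when the first UTX TCD library was left out and with the replicate block. Il21 fell under the count filter, with 20, 36 and 9 counts in UTX TCD and 2, 5 and 8 counts in WT libraries, and was called higher when the filter was dropped or when either replicate 3 was left out. Tnf averaged 97.5 ± 11.9 CPM in UTX TCD and 252 ± 14.7 CPM in WT libraries (SD, n = 3 each), a log2 fold change of -1.37 ± 0.11. Fasl, Tnfsf11 and Tnfsf14, members of the TNF family, fell by 1.59 ± 0.13, 1.52 ± 0.19 and 1.17 ± 0.15 on the log2 scale. Il2 fell by 2.50 ± 0.28 on the log2 scale. Ifng fell by 1.91 ± 0.33. EdgeR adjusted p-values of these 6 genes ran from 4.7e-04 to 0.0043, and Lta was the other lower gene at -0.75 ± 0.17, a call lost with all annotated genes counted as tests (0.054). The ratio of Ccl3 to Tnf counts was 0.549, 0.294 and 0.477 in UTX TCD and 1.23, 1.47 and 1.54 in WT libraries (exact permutation p = 0.1, 0.15 adjusted). The ratio of Ccl3 to Il2 counts averaged 0.474 ± 0.250 in UTX TCD and 0.690 ± 0.290 in WT libraries and overlapped (SD, n = 3 each; exact permutation p = 0.4).

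Inducible transcription factors and their regulators were next. Of 18 tested, 8 were lower (44.4%), 3 higher (16.7%) and 7 did not pass, against 27.0% lower and 41.1% higher over all genes tested. Their median log2 fold change was -0.25, against -0.15 over all genes tested. Nr4a2, an orphan nuclear receptor induced by T cell receptor signals, fell by 0.69 ± 0.12 on the log2 scale, Jund of AP-1 by 0.56 ± 0.08 and Nfatc2, an NFAT factor, by 0.43 ± 0.09. Fosl1, also of AP-1, fell by 0.53 ± 0.16 (edgeR adjusted p = 0.023), a call not followed under other processing. Bcl3, an atypical IkB protein, rose by 0.96 ± 0.25 and Nr4a3 by 0.65 ± 0.19. Nfkb1 was at -0.27 ± 0.08 (edgeR adjusted p = 0.024), a call lost with upper-quartile scaling (0.059), without any 1 WT library (0.051 to 0.10), without UTX TCD replicate 3 (0.071) and with all annotated genes counted as tests (0.13). With libraries left out, lower genes of this list numbered 3 (WT replicate 1 or 2), 4 (WT replicate 3 or UTX TCD replicate 3) and 12 (UTX TCD replicate 2). They numbered 3 with all annotated genes counted as tests. Higher ones numbered 0 if WT replicate 1 or 2 was left out or all annotated genes were counted, and 2 if WT replicate 3 or UTX TCD replicate 1 was left out or the scaling was gap-centred. Of 4 tested genes for proteins that speed decay of cytokine and chemokine mRNA (median log2 fold change 0.04), Zc3h12d and Zfp36 were higher at 0.26 ± 0.09 each (edgeR adjusted p = 0.030 and 0.032), Zfp36l1 and Zc3h12a did not pass, and neither call held with gap-centred scaling, without any 1 WT library or with all annotated genes counted as tests. The call of Zc3h12d was also lost with the replicate block (adjusted p = 0.051). That of Zfp36 was also lost without UTX TCD replicate 3 (adjusted p = 0.086). Of the decay genes tested 50% were called higher, near the 41.1% of all genes tested.

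**Figure D5:**
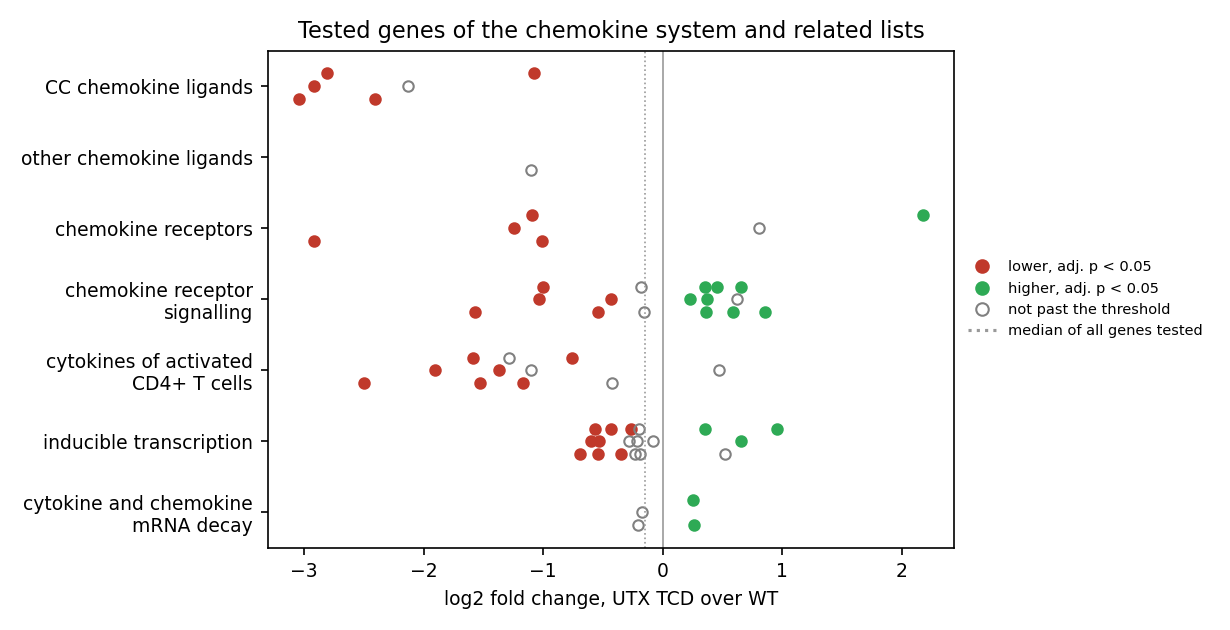
Log2 fold change, UTX TCD over WT (horizontal axis), of each tested gene in 7 lists of the chemokine system and related genes, filled where the edgeR adjusted p was under 0.05. The CC ligands lie between -3.04 and -1.08, and the inducible transcription genes between -0.69 and 0.96.

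Markers of the cell types a magnetic isolation could leave were looked for. The T cell markers with a row were Thy1, Lck and Cd2, 3 of 13, with a summed level of 2360 to 3112 CPM in UTX TCD and 2700 to 3033 CPM in WT libraries. Thy1 fell by 3.83 ± 0.23 on the log2 scale and Cd2 rose by 1.10 ± 0.23, while the CD3 chains and Cd4 were not analysed here. None of 13 macrophage and monocyte markers or 12 dendritic cell markers had a row, so their part in the levels of Ccl9 and Ccl22, which myeloid cells also make, was not tested. Cd8b1, 1 of 2 CD8 T cell markers, had 31.5 to 56.2 CPM in UTX TCD and 11.6 to 14.5 CPM in WT libraries. Ighm, 1 of 8 B cell markers, had 471 to 759 CPM in UTX TCD and 431 to 527 CPM in WT libraries. The 3 of 7 NK cell markers, Klrd1, Prf1 and Eomes, summed to 35.4 to 62.8 CPM in UTX TCD and 28.6 to 67.9 CPM in WT libraries. Eomes made up most of that sum. Klrd1 was higher, at 2.77, 4.33 and 3.96 CPM in UTX TCD and 1.09, 1.30 and 1.82 CPM in WT libraries (log2 fold change 1.40 ± 0.36, edgeR adjusted p = 0.015). Prf1 was higher in each UTX TCD library than in any WT library and did not pass (0.60 ± 0.26, edgeR adjusted p = 0.067). The part of these cell types in the chemokine levels was not tested.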

How the data were processed

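RNA was sequenced from 6 mice, 3 of each genotype, and each library is a separate mouse per the series' design text. The deposited values are raw read counts per gene symbol. The submitters' processing notes name FastQC, HISAT2, HTSeq and the build mm10. The sources used here do not give versions, annotation, strand setting or the rule by which the table's genes were selected. Columns were matched to samples by genotype and number in the titles. Genes were tested with edgeR 4.0.16 (R 4.3.3) by the quasi-likelihood F test, with genotype as the only term, TMM scaling, a minimum count of 10 and minimum total of 15, and Benjamini-Hochberg adjustment over the 4118 genes tested. Adjusting over a selected table counts too few tests. Log2 CPM used a prior count of 2. Standard errors were derived from the log2 fold change and its F statistic. Intervals and the floor of 3 counts cover counting error only. Scripts were tested on simulated data. Alternatives were RLE, upper-quartile and gap-centred scaling, no filter, DESeq2 1.42.0, limma-voom (limma 3.58.1), a replicate block, more tests and leaving out each library. The chemokine genes, lists and tests were chosen with earlier results of these data known. A receptor gene of the lists is not reported here. All 6 genes, their textbook receptors, up to 6 called genes without overlap per list, markers and the 3 nearest profiles could be named. Further genes of these lists are named with their values although the rule did not pick them: Ccr7, Xcl1, Cxcl13, Rgs10, Rgs14, Nfkb1, Il21, Lta, Ltb, Zfp36l1 and Zc3h12a. Promoters and gene spans came from RefSeq (GRCm38.p6) and GENCODE M21, both of the build the notes name.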

Additional observations from a re-analysis of the deposited data

How the results depend on the processing

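The log2 fold changes of all 6 chemokine genes were negative under each of 14 alternatives. Ccl3, Ccl4 and Ccl22 passed under all 14, and Ccl1 and Ccl20 under all but 1. With all annotated protein-coding genes as tests they stayed at -2.81 (adjusted p = 0.051) and -2.92 (0.069) and 3 of the 6 genes passed. Over the table that setting gave 630 genes higher and 296 lower, against 1692 and 1111. Ccl9 passed with limma-voom at -2.98, and its value ran from -4.69 to -1.55 with a library left out. Counts over the table were 725 lower with upper-quartile and 1874 lower with gap-centred scaling, 730 to 1824 higher and 351 to 1458 lower with a library left out (730 and 351 without WT replicate 2). The cause was not tested. With a library left out, 5 to 6 of the chemokine genes were lower and log2 values were -3.29 to -2.30 for Ccl1, -3.22 to -2.79 for Ccl3, -2.59 to -2.16 for Ccl4, -4.13 to -2.41 for Ccl20 and -1.29 to -0.98 for Ccl22. Deviations of same-numbered libraries from their genotype means correlated at 0.28, -0.28 and 0.18 across genes, and not every library correlated best with its own number, so the numbers were not taken as pairs. With the replicate block 1607 genes were higher and 1026 lower, and the same calls were made for the 6 chemokine genes. Depth limits Ccl9, Ccl20 and Ccl1, whose UTX TCD libraries held 0 to 27 counts.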
